A study of Mus musculus with 147 samples.

Results

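Adipose tissue macrophages of fasted mice were compared with 6 other mononuclear phagocyte populations of fasted mice. The adipose group holds 8 RNA-seq libraries, chosen by their labels as the fasted adipose libraries of a fasting and refeeding experiment, out of 147 samples in the study and 110 in that experiment. The 44 other fasted libraries came from blood monocytes (8), microglia (8), colonic macrophages (8), pancreatic islet macrophages (6), Kupffer cells of the liver (6) and peritoneal macrophages (8). All 52 libraries were made from mice without food for 12 h and carry no other treatment in the labels. No source used here gives the strain, sex or age of the mice, the adipose depot or the antibodies of the sorts. Cells were sorted by flow cytometry with antibodies particular to each population, and a library started from 400 cells, so each value averages a small pool. The 52 libraries fall into 4 labelled cohorts, which entered each fit as a term. Separate refed groups, with 9 adipose libraries of 58 in all, came from mice that ate for 2 h after the same 12 h fast. The labels do not say that libraries of a group came from separate mice, so p-values measure the spread between labelled samples. The islet titles 1_2 and 5_6 carry a pair of numbers each, which may stand for pooled mice.

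Macrophages settle in nearly every organ and take on a gene programme set by their surroundings. In adipose tissue they clear dying adipocytes, take up lipid released by fat cells, and hold iron. A resident, vessel-associated class of them is known in several organs by the receptors LYVE1, FOLR2, CD163 and the mannose receptor, and in fat by the lectins of the CD209 family and by the carbonyl reductase Cbr2. Fasting makes adipocytes release fatty acids, and macrophages of fat are exposed to this flux.

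Adipose libraries held between 14.6 and 23.7 M counts, against 9.90 to 22.6 M in the other 44. They detected 12123 to 14427 genes, and mitochondrial genes took 1.45% to 3.49% of their counts. Levels are given as CPM (counts per 1e+06 of the scaled library size), and differences as log2 values from the fit with their standard error (SE). Libraries of sorted macrophages can carry RNA of neighbouring cells. The adipocyte list of 12 genes summed to between 86.1 and 315 CPM in adipose libraries, with a median of 167 CPM, while the medians of the other populations were at most 16.8 CPM and the highest other library, of microglia, held 71.1 CPM. Among the defining markers, Plin1 had 0 counts in most adipose libraries and Cfd had counts in 8 of 8. In bulk libraries fewer cells of a type and less RNA per cell cannot be told apart.

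Of 16114 genes tested against the mean of the other 6 populations, each population weighted equally, 1356 were higher in adipose macrophages (8.42%) and 552 were lower (3.43%) by edgeR's quasi-likelihood test at an adjusted p below 0.05. The median log2 difference over all tested genes was 0.05. A stricter rule asked for a difference of at least 1 on the log2 scale and an adjusted p below 0.05 against each of the 6 populations. It found 35 genes higher in adipose macrophages (0.217%) and 33 lower (0.205%). Both rules rest on the same 52 libraries. DESeq2 called 1261 genes lower and voom 1307, and the count below each of the 6 was 122 by DESeq2. The count above each of the 6 was 93 by voom. The numbers of lower genes and of genes higher than in each population therefore depend on the method.

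The 3 marker genes of the population were measured first. Cbr2 encodes a carbonyl reductase and was found in 8 of 8 adipose libraries at 685 CPM in the lowest, 1146 CPM at the median and 1414 CPM in the highest. The next population by mean was colonic macrophages at 154 ± 143 CPM (SD, n = 8), followed by islet macrophages at 129 CPM, peritoneal macrophages at 42.5 CPM and monocytes at 9.53 CPM, with microglia at 1.27 CPM and Kupffer cells at 0.488 CPM. Every adipose library was above each of the 44 other libraries, the highest of which, a colonic one, reached 423 CPM. Cbr2 was higher by 6.51 ± 0.50 (SE) on the log2 scale than the mean of the other 6 (edgeR adjusted p = 9.5e-14), and its smallest pairwise difference was 2.90 ± 0.84 against colonic macrophages (edgeR adjusted p = 0.018).

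Cd209f encodes a C-type lectin of the CD209 family. Its adipose levels ran from 198 to 824 CPM with a median of 388 CPM, and the highest other library held 73.4 CPM. The groups did not overlap. Against the mean of the other 6 the difference was 8.52 ± 0.77 (edgeR adjusted p = 7.9e-12), and the smallest pairwise difference was 5.35 ± 1.29 against colonic macrophages (edgeR adjusted p = 0.0037).

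Folr2 encodes folate receptor beta, and its exons overlap an antisense gene. Adipose libraries held 70.1 CPM in the lowest, 114.7 CPM at the median and 203 CPM in the highest. Kupffer cells held 50.7 to 164 CPM, which overlaps the adipose range, and monocyte libraries had 0 counts in 8 of 8. Folr2 was higher than in each of the other 5 populations (edgeR adjusted p at most 0.0289) but not than in Kupffer cells, where the difference was -0.06 ± 0.85 (edgeR adjusted p = 0.998). Against monocytes it was at least 6248-fold higher, taken against a floor of 3 counts over the group. Of 10 genes of macrophages in general, 3 were higher than the mean of the other 6 and 1 was lower, with a median log2 difference of 0.09. Csf1r and Adgre1 are named after their values were seen. Csf1r, the receptor for macrophage colony-stimulating factor, held 2474 to 4677 CPM with a median of 3448 CPM, and Adgre1, which encodes F4/80, held 977 to 1201 CPM. Neither differed from the mean of the other 6 past the threshold (-0.23 ± 0.12 and 0.17 ± 0.14, edgeR adjusted p = 0.241 and 0.604).

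**Figure D1:**
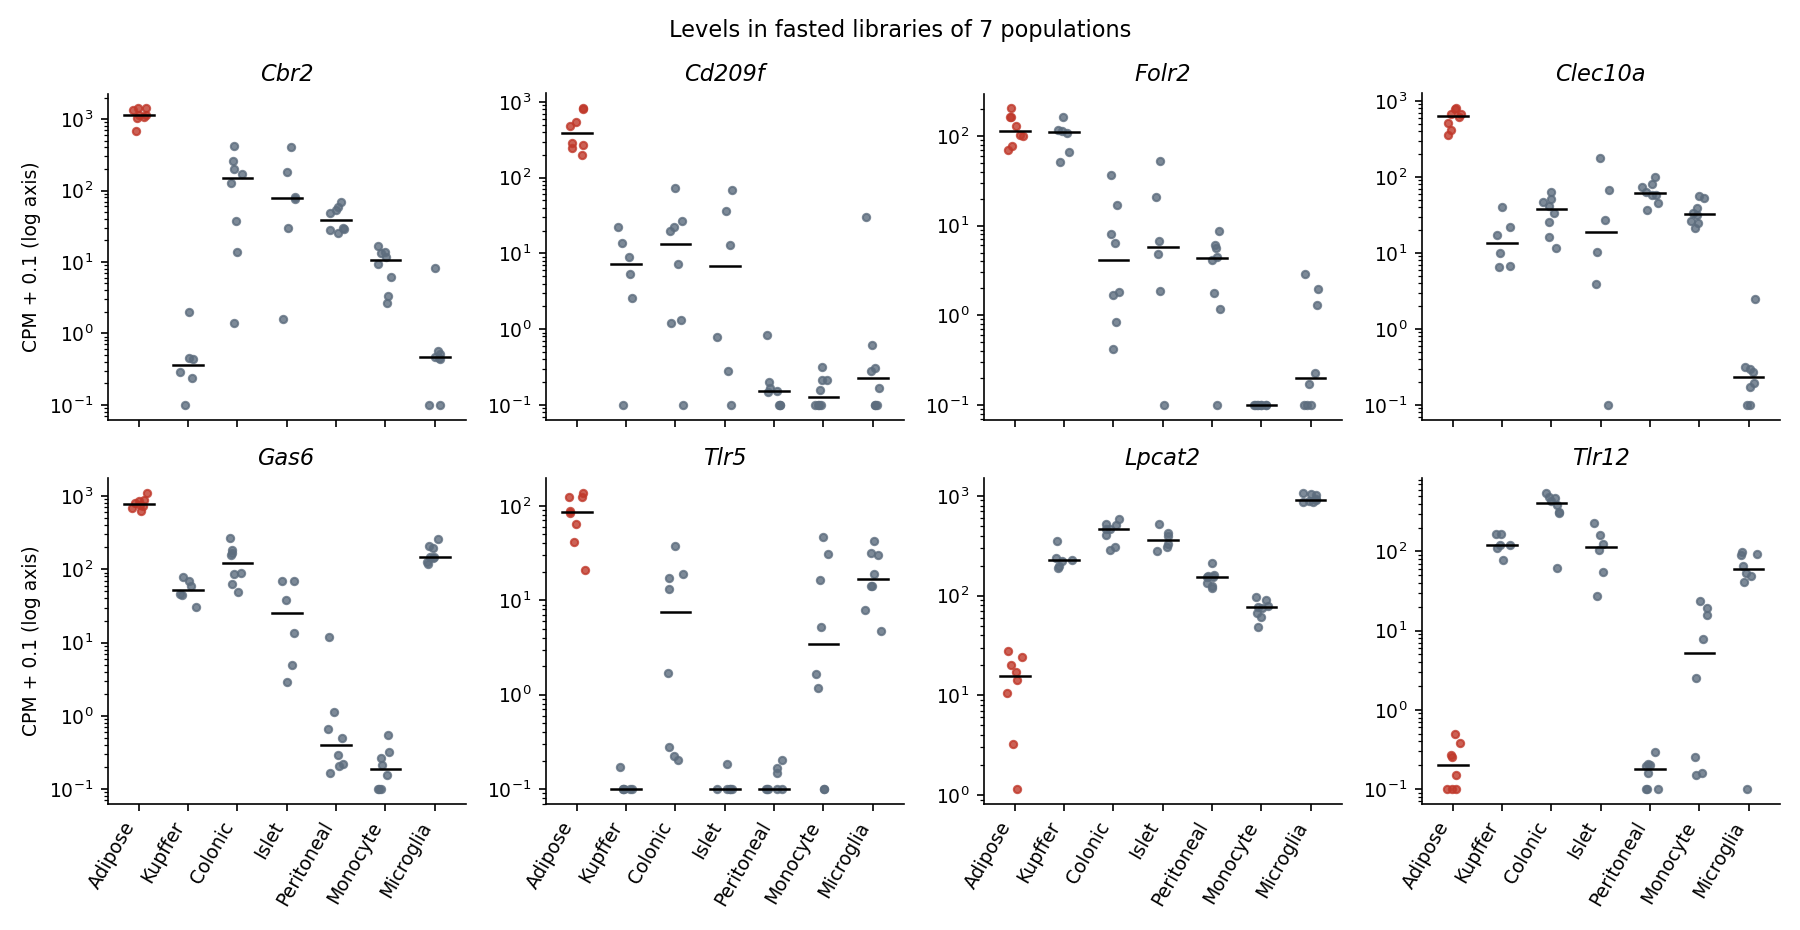
Levels of 8 genes in the 52 fasted libraries, by population. The y axis is CPM plus 0.1 on a log scale, points are libraries, bars are medians and adipose libraries are red. For Cbr2, Cd209f, Clec10a and Gas6 the 8 adipose libraries lie above all 44 others, Folr2 overlaps Kupffer cells, and Lpcat2 lies below all 44 others.

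The CD209 family was high as a group. Its members bind mannose and fucose sugars on microbes and glycoproteins. All 7 family members in the annotation used were tested, and 7 of 7 were higher than the mean of the other 6, beside 8.42% of all tested genes. The median log2 difference was 6.82, or 6.62 with populations at 0 counts set to the floor. An eighth listed gene, Cd209h, had no match. The members are related genes whose transcripts were not compared here. Reads may have been split among similar members, so single values are uncertain.

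Cd209g went with Cd209f. It held 81.9, 139 and 240 CPM in the lowest, median and highest adipose library, while other libraries reached at most 23.2 CPM, and its smallest difference was 5.20 ± 1.12 against colonic macrophages (edgeR adjusted p = 9.1e-04). Cd209b, the marginal-zone member SIGNR1, held 52.8 to 382 CPM with a median of 178 CPM, above 41 of 44 other libraries at its lowest. Its difference from colonic macrophages, 2.01 ± 1.11, did not pass the test (edgeR adjusted p = 0.29). Cd209d held 10.8 to 143 CPM with a median of 111.7 CPM, and its difference from monocytes was 2.13 ± 1.31 (edgeR adjusted p = 0.31). These members were highest in adipose macrophages by mean but were not separated from the nearest population.

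Other members were lower or shared. Cd209a, the member closest to human DC-SIGN in dendritic cells, held 45.0 to 245 CPM in adipose libraries and a mean of 215 CPM in monocytes. Cd209c held 3.12 to 23.5 CPM, with islet macrophages and Kupffer cells at 0 counts. Cd209e had 0 counts in most adipose libraries and reached 33.3 CPM in the highest. Without adipose replicate 6 its call against the mean was lost (edgeR adjusted p = 0.14), and its direction differed between cohorts.

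The start regions of the pair with the clearest separation are shown because they share a long stretch of sequence. The windows run from 250 bases before to 50 bases after the RefSeq gene start (GRCm38.p6), and capitals mark the longest run that is identical in both. It is 180 bases long. Over the other 20 of 21 pairs of the family the longest run was at most 17 bases, with a median of 9. With both windows aligned on their shared run, 238 of 286 overlapping bases were identical (83.2%), including the 180 of the run. Cd209f lies on the minus strand at chr8:4105715-4106014 and Cd209g on the plus strand at chr8:4134486-4134785.
Cd209f: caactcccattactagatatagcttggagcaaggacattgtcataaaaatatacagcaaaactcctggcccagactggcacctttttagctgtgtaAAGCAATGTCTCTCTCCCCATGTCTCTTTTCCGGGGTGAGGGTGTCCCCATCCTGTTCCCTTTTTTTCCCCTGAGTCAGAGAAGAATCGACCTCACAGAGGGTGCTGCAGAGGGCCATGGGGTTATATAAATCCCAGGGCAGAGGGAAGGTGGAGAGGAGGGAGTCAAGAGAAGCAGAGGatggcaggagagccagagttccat
Cd209g: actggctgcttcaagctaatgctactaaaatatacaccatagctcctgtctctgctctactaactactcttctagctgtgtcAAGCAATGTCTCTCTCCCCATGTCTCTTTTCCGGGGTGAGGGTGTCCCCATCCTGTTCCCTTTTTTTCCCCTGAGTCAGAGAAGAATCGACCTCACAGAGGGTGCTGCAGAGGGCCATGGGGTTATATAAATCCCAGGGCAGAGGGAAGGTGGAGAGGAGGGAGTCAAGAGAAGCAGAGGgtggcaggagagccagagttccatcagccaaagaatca

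The Cbr2 window, chr11:120731972-120732271 on the minus strand, is shown as the start region of the marker with the smallest ratio between its highest and lowest adipose library. Capitals mark matches, on either strand, to GAGGAA, the core letters of a PU.1 site, and to TGCTGA, the core letters of a MAF half-site.
Cbr2: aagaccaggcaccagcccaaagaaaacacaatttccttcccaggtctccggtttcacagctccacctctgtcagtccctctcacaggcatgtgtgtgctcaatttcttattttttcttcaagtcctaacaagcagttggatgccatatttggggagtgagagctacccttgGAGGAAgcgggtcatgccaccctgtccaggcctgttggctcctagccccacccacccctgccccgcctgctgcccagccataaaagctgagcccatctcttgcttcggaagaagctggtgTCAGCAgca

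Over all 32851 RefSeq windows of the same length, TGCTGA was present on either strand in 19.5%, GAGGAA in 28.3% and AGGTCA, a nuclear receptor half-site, in 16.3%. RefSeq held windows for 22 of the 35 genes higher than in each population. Of their 28 windows, 5 held TGCTGA (17.9%), 8 held GAGGAA (28.6%) and 3 held AGGTCA (10.7%). Of 19 windows for 15 of the 33 genes lower than in each population, 4 held TGCTGA (21.1%), 10 held GAGGAA (52.6%) and 0 held AGGTCA. A match describes letters in the window and nothing about binding.

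The 35 genes higher than in each population included genes of lipid handling, of uptake and recognition, and 5 adipocyte genes. For 17 of the 35 no adipose library overlapped any of the 44 others, 8 have exons that overlap another gene, and 10 had 0 counts in at least 1 other population. The 35 were chosen as higher in these same libraries, so the lack of overlap is partly built in. The share without overlap over all tested genes is not given here. Cd36, a receptor that takes up long-chain fatty acids and oxidised lipoproteins, held 4818 CPM in the lowest adipose library, 5469 CPM at the median and 7456 CPM in the highest. The highest other library, a peritoneal one, held 2025 CPM. The groups did not overlap, and the smallest pairwise difference was 1.98 ± 0.40 against peritoneal macrophages (edgeR adjusted p = 2.5e-04). Plin2, which coats lipid droplets, ran from 2306 to 4522 CPM with a median of 3155 CPM, above the highest other library at 1559 CPM. Its smallest difference was 1.45 ± 0.23 against islet macrophages (edgeR adjusted p = 9.8e-06). Angptl4, a secreted inhibitor of lipoprotein lipase, ran from 221 to 338 CPM with a median of 265 CPM, and the highest other library held 116.7 CPM. Its smallest difference was 2.42 ± 0.79 against Kupffer cells (edgeR adjusted p = 0.042).

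**Figure D2:**
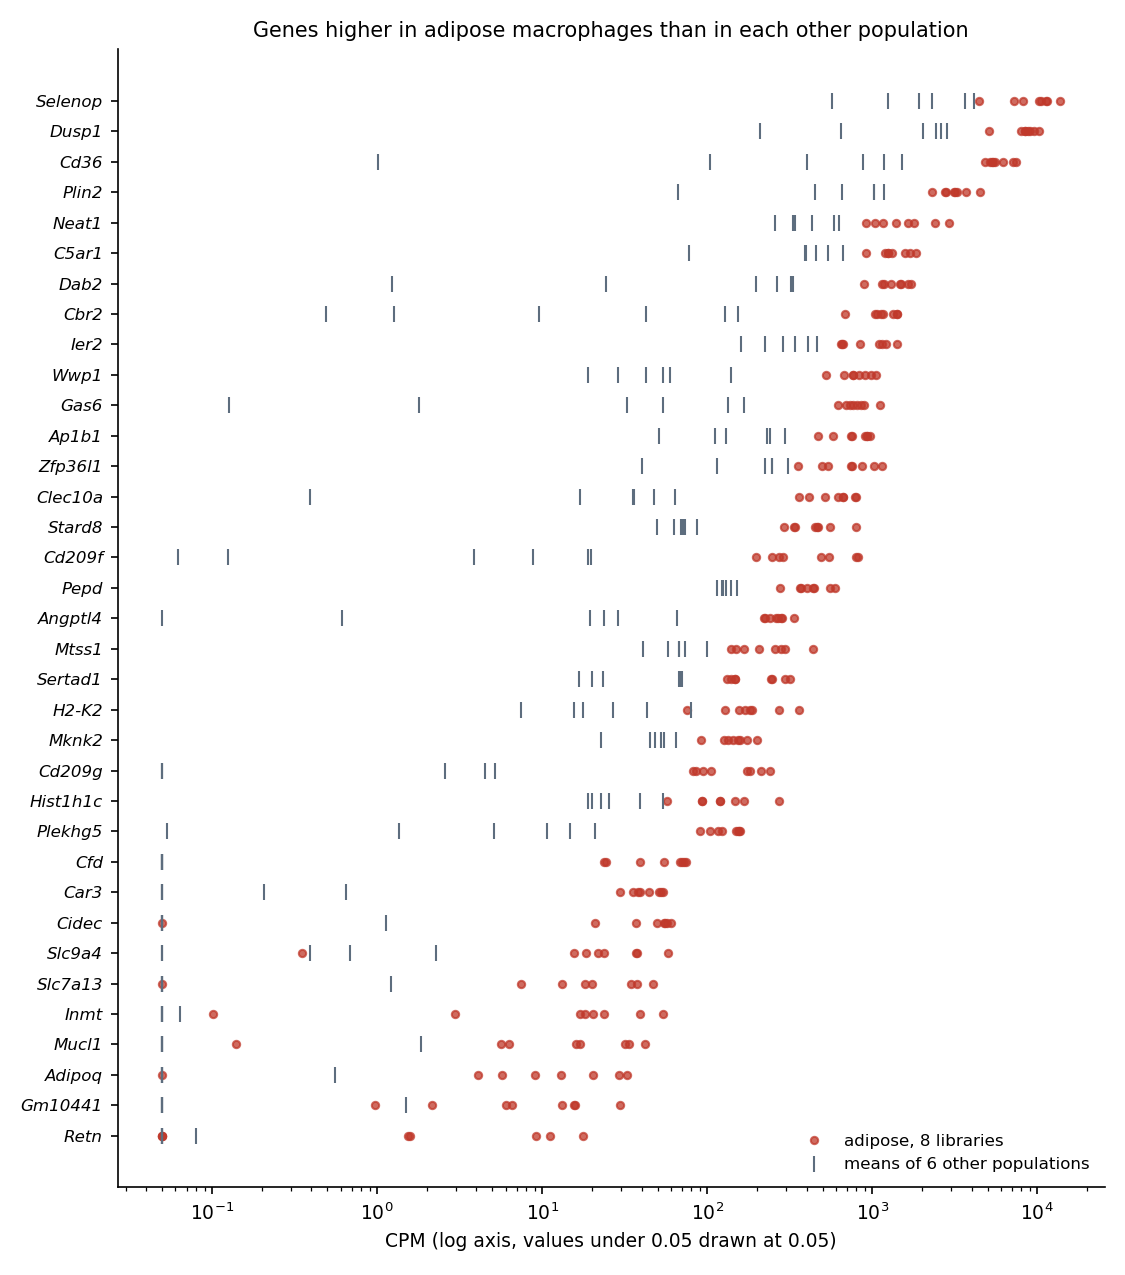
The 35 genes higher in adipose macrophages than in each of the other 6 fasted populations, in order of mean adipose level. Red points are the 8 adipose libraries and ticks the means of the other populations, in CPM on a log axis with values under 0.05 drawn at 0.05. Cidec, Slc7a13, Adipoq and Retn have adipose libraries at 0, while Cd36 holds at least 4818 CPM in each.

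Gas6, Clec10a, C5ar1 and Dab2 were also among the 35. Gas6 bridges phosphatidylserine on dying cells to the receptors MERTK and AXL. It ran from 620 to 1117 CPM with a median of 787 CPM, and the highest other library held 268 CPM. Its smallest difference was 2.29 ± 0.67 against microglia (edgeR adjusted p = 0.0104), and its exons overlap Tmem255b on the other strand. Clec10a, a lectin for galactose and N-acetylgalactosamine, ran from 361 to 799 CPM with a median of 641 CPM. The highest other library, of islet macrophages, held 179 CPM, and the smallest difference was 3.21 ± 0.64 against peritoneal macrophages (edgeR adjusted p = 2.1e-04). C5ar1, the receptor for the complement fragment C5a, ran from 917 to 1830 CPM and lay above 42 of 44 other libraries at its lowest. Dab2, an adaptor for endocytosis, ran from 897 to 1728 CPM, above all 44 others, with a smallest difference of 2.12 ± 0.73 against islet macrophages (edgeR adjusted p = 0.0496).

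Wwp1, Stard8, Plekhg5 and Sertad1, also among the 35, exceeded all 44 other libraries. Wwp1, a ubiquitin ligase, ran from 521 to 1056 CPM with a median of 797 CPM (smallest difference 2.496 ± 0.44, colonic, edgeR adjusted p = 5.0e-05). Stard8, a GTPase-activating protein, ran from 290 to 792 CPM (2.28 ± 0.66, Kupffer, edgeR adjusted p = 0.019). Plekhg5, a guanine nucleotide exchange factor, ran from 90.8 to 159 CPM (2.90 ± 1.06, microglia, edgeR adjusted p = 0.044). Sertad1, a transcriptional co-regulator, ran from 131 to 317 CPM (1.48 ± 0.48, Kupffer, edgeR adjusted p = 0.0404). Dusp1 and Selenop of the 35 overlapped other libraries and are named after their values were seen. The immediate early gene Dusp1, a phosphatase of MAP kinases, ran from 5117 to 10212 CPM above 43 of 44 libraries, and Selenop, a secreted selenium carrier, from 4409 to 13706 CPM above 39 of 44.

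Genes of adipocytes were among the 35 as well. Cfd, which encodes adipsin, ran from 23.6 to 74.3 CPM while other libraries reached at most 0.171 CPM. Car3, a carbonic anhydrase abundant in fat, ran from 29.7 to 54.2 CPM and Cidec, which fuses lipid droplets, from 0 to 60.1 CPM. Adipoq, the hormone adiponectin, ran from 0 to 32.7 CPM and Retn, the hormone resistin, from 0 to 17.7 CPM. Retn was not called against the mean of the other 6 by DESeq2 (adjusted p = 0.093). Slc7a13 (0 to 46.8 CPM), Slc9a4 (0.349 to 57.5 CPM), Inmt (0.101 to 53.8 CPM), Mucl1 (0.139 to 41.9 CPM) and Gm10441 (0.974 to 29.7 CPM) had at least 1 adipose library near 0 and medians between 9.83 and 22.8 CPM.

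The adipocyte genes can be followed from library to library beside the macrophage genes. In replicates 1 to 8 the summed adipocyte list held 158, 144, 86.1, 165, 315, 169, 221 and 210 CPM. In replicate 3, the library with the least, Cidec had 0 counts and Cfd held 24.2 CPM. The same library held Cd36 at 4818 CPM, its lowest adipose value, and Plin2 at 3285 CPM. It held Angptl4 at 223 CPM, Cbr2 at 1333 CPM and Cd209f at 247 CPM. For each of these genes every adipose library exceeded all 44 others, so replicate 3 did so by necessity. In replicate 5, the library with the most, Cd36 held 5534 CPM. Plin2 at 2306 CPM and Cbr2 at 685 CPM had their lowest adipose values there. Of the fibroblast genes, 7 of 10 could be tested and 6 were called higher (85.7%, beside 8.42% of all tested genes), with a median log2 difference of 7.08, or 6.68 with groups at 0 counts set at the floor of 3 counts. Adipose macrophages had the highest mean for 5 of the 7. The filter asks for enough counts in as many libraries as the smallest group holds. Members high only in adipose can therefore pass it through adipose, which raises the percentage. At least 1 population had 0 counts for 3 of the 7. The summed fibroblast list held 164 to 1315 CPM (replicate 3 the lowest, replicate 2 the highest) with a median of 384 CPM, beside medians of 397 CPM in monocytes and 543 CPM in colonic libraries. Most of it was Gsn (145 to 1103 CPM), while Dcn, which encodes the matrix protein decorin, ran from 2.01 to 170 CPM and Col1a1 had counts in 3 of 8 libraries. Without replicates 2 and 5, which had the highest sums of the fibroblast list, 1111 genes were higher, 410 lower, 30 higher than in each population and 24 lower than in each. The part of adipocyte and fibroblast RNA in genes whose levels follow it was not tested.

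**Figure D3:**
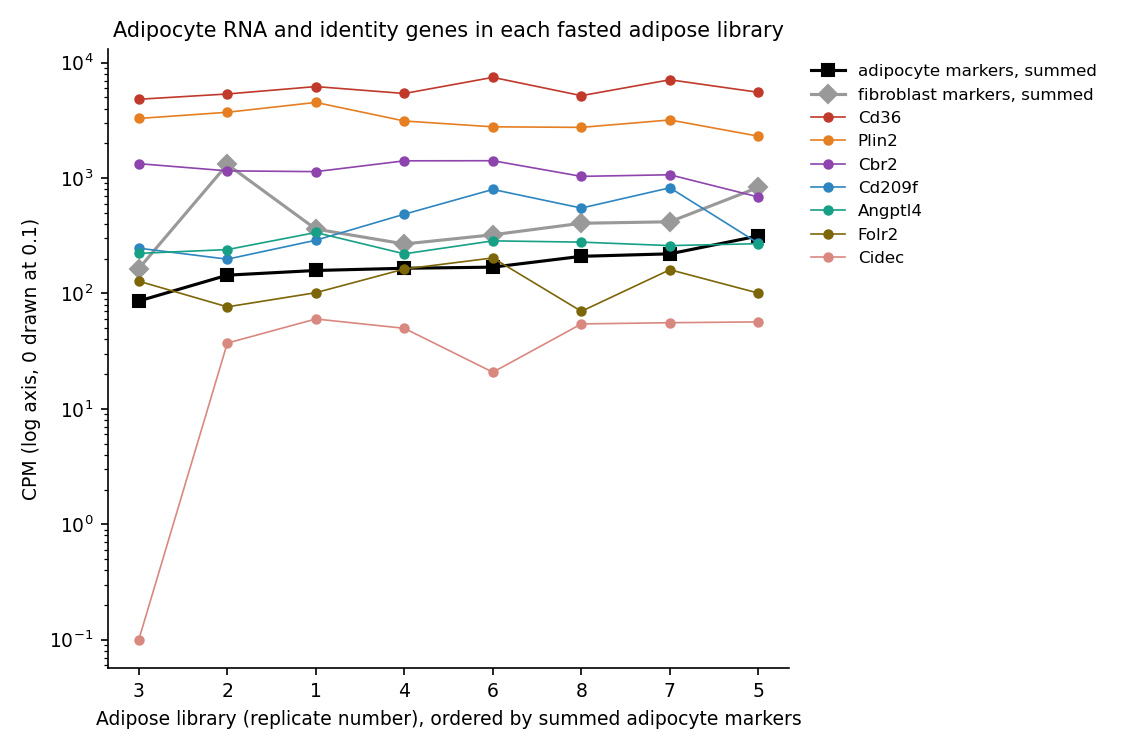
Summed adipocyte and fibroblast lists beside named genes in each fasted adipose library, ordered by the summed adipocyte list (x axis, replicate number). The y axis is CPM on a log scale with 0 drawn at 0.1. Cd36 runs from 4818 CPM, in replicate 3, to 7456 CPM, the adipocyte sum runs from 86.1 to 315 CPM, and Cidec is at 0 in replicate 3.

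Counts by gene list were read against 8.42% higher and 3.43% lower over all tested genes. Called members include genes at 0 counts in another population, and a gene high only in adipose can pass the filter of low counts through adipose. The lists were chosen with earlier results of these data known, so their counts describe and do not test the lists. The list of resident LYVE1 and FOLR2 macrophage genes had 19 of 20 members higher and 0 lower, with a median log2 difference of 5.05.

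**Figure D4:**
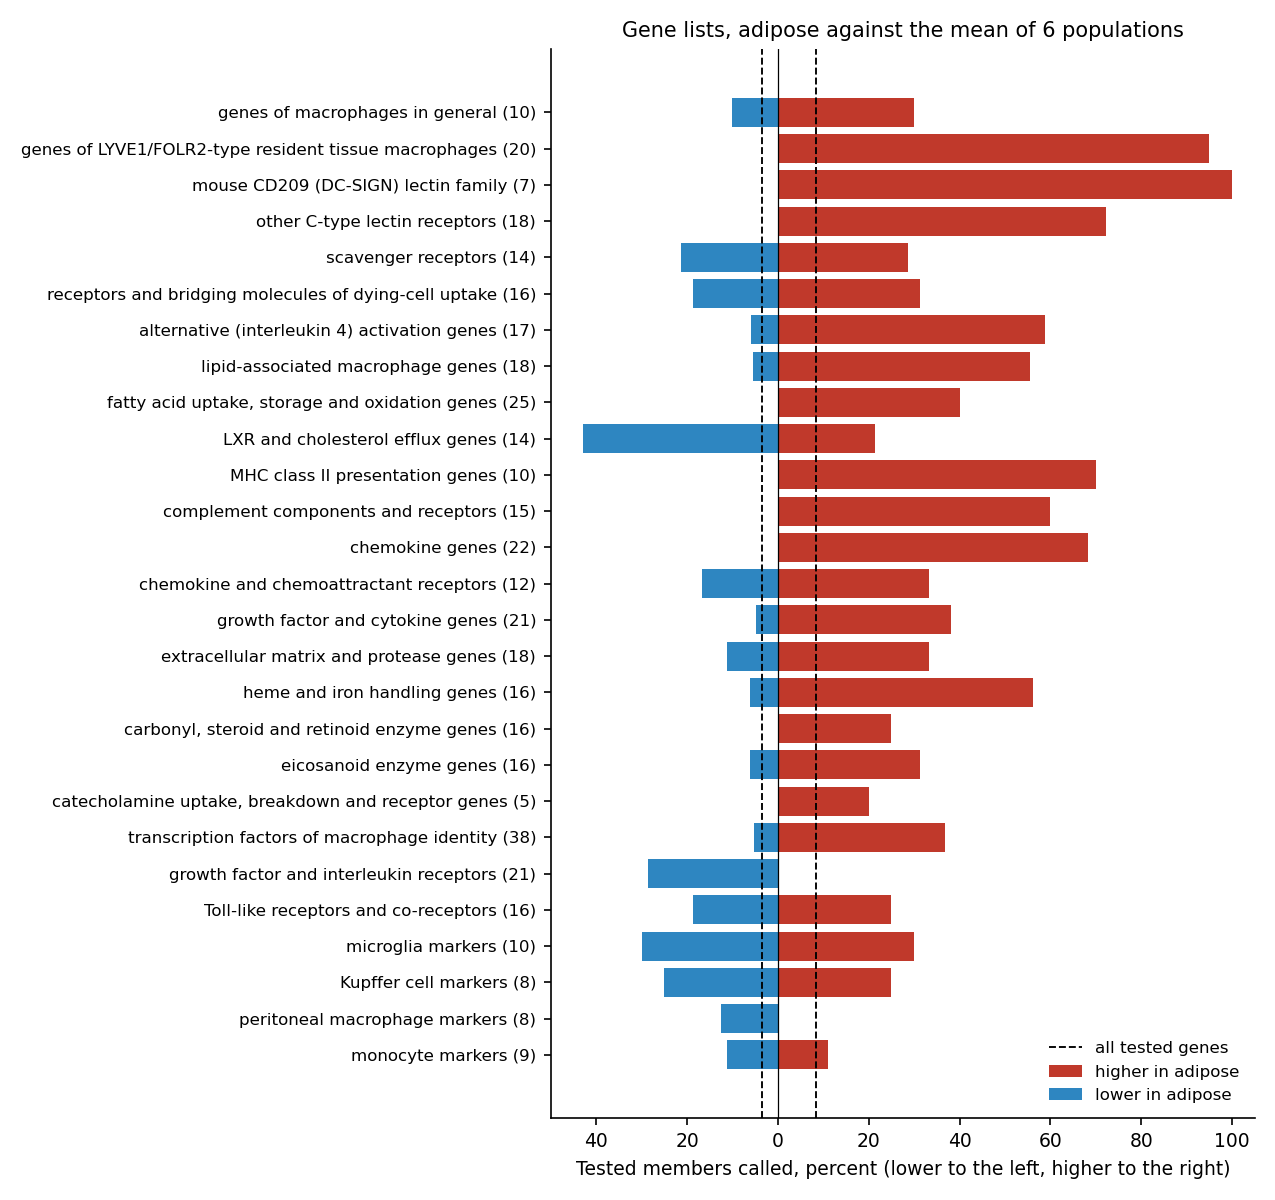
Percent of tested members called higher (right, red) and lower (left, blue) in adipose macrophages against the mean of the other 6 fasted populations, for 27 lists with their number of tested members in parentheses. Dashed lines are the percentages over all tested genes, 8.42 and 3.43. The resident list and the CD209 family have the longest bars to the right (95% and 100%), and cholesterol efflux genes the longest to the left (42.9%).

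Several resident genes also had high levels in Kupffer cells or monocytes. Lyve1, the hyaluronan receptor, ran from 147 to 567 CPM with a median of 472 CPM, against a Kupffer mean of 328 CPM (difference 0.11 ± 0.91, edgeR adjusted p = 0.99). Cd163, the receptor for haemoglobin bound to haptoglobin, ran from 1405 to 2779 CPM with a median of 1896 CPM and lay above 43 of 44 other libraries at its lowest. Its difference from Kupffer cells was 0.76 ± 0.82 (edgeR adjusted p = 0.73). Mrc1, the mannose receptor, ran from 1383 to 2286 CPM, and its difference from Kupffer cells was 0.55 (edgeR adjusted p = 0.77). F13a1, a clotting factor subunit, ran from 2137 to 4065 CPM and was shared with monocytes, which had a mean of 2324 CPM. Igf1, a growth factor, ran from 332 to 777 CPM beside a Kupffer mean of 522 CPM.

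The exception in the resident list was Timd4, a receptor for phosphatidylserine, named after its value was seen. Adipose libraries held 7.28 to 41.3 CPM with a median of 33.4 CPM, and 23 of 44 other libraries were above the highest of them. Peritoneal macrophages had the highest mean, 543 CPM. Timd4 did not pass the test against the mean of the other 6 (0.43 ± 0.63, edgeR adjusted p = 0.85). It passed as higher by voom, and without the islet libraries whose titles carry a pair of numbers (1.93, edgeR adjusted p = 0.0017). It also passed with the replicate block, which leaves out the same islet libraries (1.98, edgeR adjusted p = 0.0022), while its sign turned without microglia or without monocytes.

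Alternative activation genes, those induced by interleukin 4, had 10 of 17 members higher and 1 lower, with a median of 2.03. Retnla, the secreted protein RELM alpha, ran from 2218 to 16289 CPM with a median of 8671 CPM. The highest other library, a peritoneal one, held 1495 CPM, so the groups did not overlap. It was higher than the mean of the other 6 by 8.45 ± 0.68 (edgeR adjusted p = 5.2e-13), and its difference from peritoneal macrophages was 2.91 ± 1.08 (edgeR adjusted p = 0.062). Mgl2, a lectin of the same family as Clec10a, ran from 268 to 815 CPM (5.97 ± 0.64, edgeR adjusted p = 8.3e-10). Ear2, a ribonuclease, ran from 79.5 to 810 CPM and was shared with Kupffer cells, whose mean was 259 CPM. Ccl17 was near 0 at its median of 0.586 CPM and lost its call without replicates 2 and 5 (edgeR adjusted p = 0.056). Tgm2, a transglutaminase of this list, was lower at 0.359 to 82.9 CPM (-2.60 ± 0.52, edgeR adjusted p = 2.7e-04), with colonic macrophages at a mean of 3165 CPM.

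C-type lectin receptors outside the CD209 family had 13 of 18 members higher and 0 lower, with a median of 1.91. Clec4b1, a receptor of the Dectin-2 cluster, ran from 114.2 to 202 CPM and lay above all 44 other libraries. Its difference from Kupffer cells, 1.63 ± 0.90, did not pass (edgeR adjusted p = 0.31). Colec12, a collectin and scavenger receptor, ran from 81.6 to 240 CPM beside a peritoneal mean of 69.4 CPM.

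Genes of lipid-associated macrophages, a state described in obese fat, were mixed. Of 18 members 10 were higher and 1 was lower, with a median of 0.92. The higher ones included Cd36 and Plin2, given above, and Fabp4, a fatty acid binding protein, at 26.7 to 194 CPM beside 373 CPM in peritoneal macrophages. Atp6v0d2, a subunit of the vacuolar proton pump, ran from 0.209 to 39.2 CPM, with monocytes, microglia and peritoneal macrophages at 0 counts (at least 1059-fold higher against the floor of 3 counts). Trem2, the receptor that defines the state, was low at 46.5 to 157 CPM with a median of 49.9 CPM and did not differ from the mean of the other 6 past the threshold (-0.48 ± 0.34, edgeR adjusted p = 0.49). That value turned sign without microglia, whose mean was 1265 CPM. Cd9, a tetraspanin, was lower at 5.10 to 61.02 CPM (-2.77 ± 0.34, edgeR adjusted p = 1.4e-08), with monocytes as the population nearest to it.

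Fatty acid uptake, storage and oxidation genes had 10 of 25 members higher and 0 lower, with a median of 0.52. Besides Cd36 and Angptl4, the higher members included Pdk4, the kinase that closes pyruvate dehydrogenase in fasting. It ran from 83.2 to 231 CPM with a median of 111.1 CPM, and 43 of 44 other libraries were below its lowest value. Its difference from peritoneal macrophages was 1.72 ± 0.78 (edgeR adjusted p = 0.14). In the library with the least adipocyte RNA Pdk4 held 108.8 CPM, above all 44 other libraries, and in the library with the most it held 231 CPM, its highest adipose value. Lpl, the lipoprotein lipase, ran from 470 to 1238 CPM (1.87 ± 0.31, edgeR adjusted p = 1.5e-05). It held 470 CPM in the library with the least adipocyte RNA, with 13 of 44 other libraries above it, and 956 CPM in the library with the most, with 5 above it.

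Cholesterol efflux genes had 6 of 14 members lower and 3 higher, with a median of -0.21. Scarb1, a receptor for high-density lipoprotein, ran from 0.697 to 64.99 CPM (-1.89 ± 0.37, edgeR adjusted p = 1.9e-04). Abcg1, a cholesterol exporter, ran from 19.9 to 105.03 CPM (-1.28 ± 0.23, edgeR adjusted p = 5.4e-05), and Mylip, which degrades the LDL receptor, from 19.7 to 122 CPM (-1.07 ± 0.26, edgeR adjusted p = 0.0022). Lpcat3, a phospholipid acyltransferase, was lower by 0.79 on the log2 scale but lost its call without any of adipose replicates 1, 2, 5, 6, 7 or 8, with adjusted p between 0.0523 and 0.104. In the other direction, Pltp, which transfers phospholipid, ran from 1671 to 3545 CPM (3.28 ± 0.30, edgeR adjusted p = 1.3e-11) beside a Kupffer mean of 2035 CPM. Apoe held 12100 to 19832 CPM, and its difference of 0.56 was -0.08 without microglia and lost its call without replicate 2 (edgeR adjusted p = 0.069). Ch25h, which makes 25-hydroxycholesterol, ran from 0 to 20.8 CPM and lost its call without replicate 4 (edgeR adjusted p = 0.11).

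Chemokine genes had 15 of 22 members higher and 0 lower, with a median of 3.07. Cxcl12, which retains leukocytes and stem cells, ran from 11.3 to 207 CPM with a median of 122 CPM, and 37 of 44 other libraries were below its lowest value. Its difference from peritoneal macrophages was 1.74 ± 0.94 (edgeR adjusted p = 0.24). Ccl8, a ligand for CCR8 in mice, ran from 24.7 to 323 CPM with a median of 78.04 CPM (7.41 ± 0.69, edgeR adjusted p = 5.9e-12), beside a colonic mean of 41.5 CPM. Ccl9 ran from 1796 to 3192 CPM, above all 44 other libraries, and Ccl2, the ligand of CCR2, from 172 to 1252 CPM. Ccl11 had 0 counts in most adipose libraries, a highest value of 7.86 CPM, and was not called by DESeq2 (adjusted p = 0.21).

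Chemokine and chemoattractant receptors had 4 of 12 higher and 2 lower. Ccr2 held 265 to 1182 CPM with a median of 602 CPM, below the monocyte mean of 2391 CPM (-1.75 ± 0.63 against monocytes, edgeR adjusted p = 0.047) and above the mean of the other 6 (3.26 ± 0.40, edgeR adjusted p = 2.4e-08). Cxcr4, the receptor of Cxcl12, held 19.6 to 82.9 CPM and Ccrl2, a chemerin-binding receptor, 395 to 674 CPM. Cx3cr1, the fractalkine receptor, held 8.16 to 147 CPM and was lower than the mean of the other 6 (-2.33 ± 0.35, edgeR adjusted p = 2.5e-06) but higher than in peritoneal macrophages by 6.21 (edgeR adjusted p = 7.1e-14). Fpr1, a receptor for formyl peptides, had a median of 0.0631 CPM, and its call was lost without replicates 3, 4, 5 or 6 in turn (adjusted p between 0.051 and 0.055).

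Antigen presentation genes were high and shared with gut and islet. Of 10 MHC class II genes 7 were higher and 0 lower, with a median of 1.94. Cd74, the invariant chain, ran from 11200 to 23657 CPM, and H2-Aa, H2-Ab1 and H2-Eb1, chains of the presenting molecules, from 4325 to 9696, 5467 to 12905 and 5114 to 8484 CPM. Islet macrophages had the highest mean for each of the 4, for example 38649 CPM for Cd74. Differences from the mean of the other 6 were 2.87 ± 0.26, 3.15 ± 0.37, 2.89 ± 0.27 and 3.39 ± 0.34 (edgeR adjusted p at most 8.7e-09).

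Complement genes had 9 of 15 higher and 0 lower, with a median of 1.198. C1qa, C1qb and C1qc, the recognition chains of the classical pathway, held medians of 2351, 4478 and 2495 CPM, and were called higher. The differences turned sign without monocytes, to -0.24, -0.07 and -0.20. Cfp, or properdin, ran from 1285 to 2818 CPM (2.53 ± 0.40, edgeR adjusted p = 6.2e-06). C4b ran from 108.1 to 627 CPM and lost its call without replicates 1, 2 or 4 in turn (adjusted p between 0.051 and 0.088), and Serping1, the C1 inhibitor, without replicate 2 (adjusted p = 0.11).

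Iron handling genes had 9 of 16 higher and 1 lower, with a median of 0.94. Besides Cd163, Tfrc, the transferrin receptor, ran from 88.2 to 259 CPM with a median of 195 CPM (3.11 ± 0.65, edgeR adjusted p = 4.2e-04). Hmox1, which breaks down haem, ran from 717 to 1903 CPM and Slc40a1, the iron exporter ferroportin, from 223 to 704 CPM. Both were highest in Kupffer cells, at means of 2032 and 5461 CPM.

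Growth factor and cytokine genes had 8 of 21 higher and 1 lower. Pdgfc, a platelet-derived growth factor, ran from 13.7 to 108.8 CPM with a median of 66.9 CPM, beside a Kupffer mean of 48.4 CPM (difference 0.49 ± 0.98, edgeR adjusted p = 0.89). Areg, or amphiregulin, ran from 0 to 22.9 CPM and was not called by voom (adjusted p = 0.054). Il1a was lower at 0.0513 to 56.1 CPM (-2.75 ± 0.70, edgeR adjusted p = 0.0049), and without colonic macrophages, whose mean was 882 CPM, it lost its call (adjusted p = 0.0604).

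Matrix and protease genes had 6 of 18 higher and 2 lower. Mmp9, a gelatinase, ran from 188 to 498 CPM (4.40 ± 0.53, edgeR adjusted p = 1.6e-08), with a colonic mean of 822 CPM. Fn1, or fibronectin, ran from 378 to 1978 CPM beside 29254 CPM in peritoneal macrophages. Mmp19 ran from 23.4 to 679 CPM with a median of 56.1 CPM, the highest library being replicate 2. Mmp14 and Mmp27 were near 0, with medians of 0.0767 and 0 CPM. Mmp14 lost its call without any of replicates 1 to 6 (adjusted p between 0.064 and 0.072).

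Enzymes of retinoid, carbonyl and steroid metabolism had 4 of 16 members higher and 0 lower. Besides Cbr2, Aldh1a2, which makes retinoic acid, ran from 15.5 to 214 CPM with a median of 76.03 CPM, and islet macrophages had 0 counts (at least 2725-fold higher against the floor). Its difference from peritoneal macrophages was 1.57 ± 0.78 (edgeR adjusted p = 0.19). Dhrs3, which reduces retinal, ran from 573 to 1087 CPM (1.64 ± 0.18, edgeR adjusted p = 4.0e-10), and Akr1b8, an aldose reductase relative, from 4.58 to 57.6 CPM (5.15 ± 0.90, edgeR adjusted p = 2.5e-05).

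Eicosanoid genes had 5 of 16 higher and 1 lower. Pla2g2d, a secreted phospholipase of resident macrophages and dendritic cells, ran from 30.8 to 210 CPM, beside a colonic mean of 413 CPM. Ltc4s, which makes leukotriene C4, ran from 19.6 to 79.8 CPM, Ptgs2, the inducible cyclooxygenase, from 35.5 to 220 CPM and Hpgds, a prostaglandin D synthase, from 73.7 to 308 CPM. Ptgs2 and Hpgds lost their calls without monocytes (edgeR adjusted p = 0.12 and 0.45) and without peritoneal libraries (edgeR adjusted p = 0.082 and 0.44). Ptgs1, the constitutive cyclooxygenase, was lower at 5.44 to 123 CPM (-1.46 ± 0.32, edgeR adjusted p = 7.1e-04), with microglia at a mean of 859 CPM. Of the catecholamine genes, 5 of 11 could be tested and 1 was higher. It was Maoa, which breaks down noradrenaline, at 12.7 to 113.3 CPM with a median of 67.6 CPM, beside a colonic mean of 45.0 CPM (difference 0.53 ± 1.24, edgeR adjusted p = 0.898). Slc6a2, the noradrenaline transporter, had 0 counts in all 52 fasted libraries.

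Transcription factors of macrophage identity had 14 of 38 members higher and 2 lower, with a median of 0.29. Egr2, an early growth response factor, ran from 112.8 to 446 CPM with a median of 220 CPM (4.03 ± 0.53, edgeR adjusted p = 1.0e-07), and 42 of 44 other libraries were below its lowest value. Its difference from colonic macrophages was 1.42 ± 0.86 (edgeR adjusted p = 0.36). Atf3, a stress-induced factor, ran from 1123 to 3425 CPM (3.20 ± 0.28, edgeR adjusted p = 3.7e-12), with a difference of 0.07 ± 0.49 from islet macrophages (edgeR adjusted p = 0.98). Id3 ran from 88.2 to 412 CPM and Spic, the factor of red pulp macrophages, from 21.5 to 107.7 CPM, both below Kupffer cells by mean. Without microglia Spic lost its call (adjusted p = 0.084).

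Maf is named because it is a known regulator of resident macrophages, after its values were seen. It ran from 87.5 to 294 CPM with a median of 199 CPM (1.95 ± 0.32, edgeR adjusted p = 6.3e-06), and its smallest difference from a single population was 0.19 ± 0.46, from microglia (edgeR adjusted p = 0.85). Pparg, a fatty acid receptor, ran from 4.18 to 67.1 CPM and lost its call without microglia (adjusted p = 0.315). Spi1, which encodes PU.1, was lower at 183 to 599 CPM (-0.51 ± 0.13, edgeR adjusted p = 0.0039), and so was Id2 at 107.9 to 321 CPM (-0.78 ± 0.22, edgeR adjusted p = 0.012), which lost its call without islet, Kupffer or peritoneal libraries in turn.

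Growth factor and interleukin receptors had 0 of 21 higher and 6 lower and a median of -0.24. Tgfbr1, a receptor for TGF beta, ran from 19.3 to 116.7 CPM (-1.85 ± 0.26, edgeR adjusted p = 2.5e-07), with microglia at a mean of 1346 CPM. Csf3r, the receptor of granulocyte colony-stimulating factor, ran from 15.6 to 94.1 CPM (-1.79 ± 0.26, edgeR adjusted p = 5.6e-07), below its level in 36 of 44 other libraries at its highest. Ifngr2, a chain of the interferon gamma receptor, ran from 56.7 to 132 CPM (-1.06 ± 0.18, edgeR adjusted p = 1.5e-05) and Adipor1, an adiponectin receptor, from 81.6 to 298 CPM (-0.93 ± 0.15, edgeR adjusted p = 3.4e-06).

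Toll-like receptors and their partners had 4 of 16 higher and 3 lower. Tlr5, the flagellin receptor, ran from 20.9 to 138 CPM with a median of 85.7 CPM. Its difference from microglia, the next population at a mean of 20.3 CPM, was 2.18 ± 0.99 (edgeR adjusted p = 0.12), and islet macrophages and Kupffer cells had a single count each over their libraries. Tlr8, which senses RNA, held 175 CPM at the median and 259 CPM in the highest library (2.82 ± 0.23, edgeR adjusted p = 1.2e-13), with a difference of 0.04 ± 0.38 from Kupffer cells (edgeR adjusted p = 0.99). Tlr12, a receptor for profilin of parasites, was close to absent at 0 to 0.398 CPM, while means were 376 CPM in colonic macrophages, 127 CPM in Kupffer cells and 116.5 CPM in islet macrophages (-7.58 ± 1.00 against the mean of the other 6, edgeR adjusted p = 1.1e-07). Peritoneal macrophages were as low, at a mean of 0.0702 CPM. Tlr13 held 34.1 to 194 CPM (-1.36 ± 0.23, edgeR adjusted p = 1.1e-05). Tlr11 had a median of 1.85 CPM and lost its call without replicate 6 or 8 (adjusted p = 0.16 and 0.27).

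Scavenger receptors had 4 of 14 higher and 3 lower, and genes of dying-cell uptake 5 of 16 higher and 3 lower. Stab1, which clears modified proteins, ran from 733 to 1800 CPM (2.59 ± 0.31, edgeR adjusted p = 1.5e-08). Lrp1, a large endocytic receptor, was lower at 171 to 525.6 CPM (-0.73 ± 0.17, edgeR adjusted p = 0.0018), as were Scarb2 of lysosomes at 79.9 to 169 CPM and Elmo1, an engulfment adaptor, at 44.3 to 172 CPM. Itgav, an integrin chain of the same route, ran from 1.55 to 56.4 CPM (-1.91 ± 0.40, edgeR adjusted p = 3.6e-04). Cd68, a lysosomal macrophage protein, was higher at 1401 to 1979 CPM (0.95 ± 0.11, edgeR adjusted p = 2.8e-09), and Tyrobp, the signalling adaptor DAP12, was lower at 751 to 1481 CPM (-0.48 ± 0.09, edgeR adjusted p = 1.3e-04). Lyz2 held 12567 to 22437 CPM, and its difference of 0.93 was -0.05 without microglia.

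Among the 33 genes lower than in each population, 9 had 0 counts in 8 of 8 adipose libraries and 21 a mean under 1 CPM. For 5 of the 33 no adipose library overlapped any of the 44 others. The 33 were chosen as lower in these same libraries, so the lack of overlap is partly built in. Its share over all tested genes is not given here, so the count cannot be called high or low. Lpcat2, an enzyme that makes platelet-activating factor, is among the 5 and ran from 1.05 to 27.98 CPM with 48.2 CPM as the lowest other library (-4.23 ± 0.30, edgeR adjusted p = 3.0e-15). Mtus1, a microtubule-associated protein, ran from 0 to 55.8 CPM with 81.9 CPM as the lowest other (-3.43 ± 0.47, edgeR adjusted p = 2.6e-07). Gngt2, a G protein gamma subunit, ran from 2.41 to 30.95 CPM with 36.6 CPM as the lowest other (-3.61 ± 0.28, edgeR adjusted p = 2.6e-14). Abi3, an actin regulator, ran from 0 to 5.05 CPM with 8.70 CPM as the lowest other (-4.44 ± 0.44, edgeR adjusted p = 2.8e-11). Gngt2 and Abi3 overlap each other on opposite strands, so reads of one may have been counted for the other. Bin2, a membrane-bending protein of podosomes, ran from 22.9 to 104.3 CPM, below 43 of 44 libraries, and Ndst1, which sulphates heparan, from 0 to 24.4 CPM. Plcb2 (6.75 to 59.3 CPM), Nbeal2 (0.151 to 28.4 CPM), Svbp (0.902 to 14.9 CPM) and Cd300lf (0 to 14.8 CPM) overlapped 5 to 10 of the other libraries.

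Markers of the other populations were set against the same mean of the other 6. That mean includes the population each list marks, which pulls the differences down. A marker that was not called higher therefore says little about RNA of that population. The microglial list had 3 of 10 higher (30%) and 3 lower, and the Kupffer list 2 of 8 higher (25%) and 2 lower. The peritoneal list had 0 of 8 higher and 1 lower, and the monocyte list 1 of 9 higher (11.1%) and 1 lower, beside 8.42% higher over all tested genes. Of the microglial markers, Fcrls (87.4 to 452 CPM) and Gpr34 (163 to 423 CPM) were higher than the mean of the other 6 by 4.30 ± 0.49 and 3.74 ± 0.50 (edgeR adjusted p = 4.0e-09 and 1.8e-07), yet below all 8 microglial libraries. Tmem119 and Olfml3 were near 0, with medians of 2.07 and 0.117 CPM against microglial means of 3961 and 1651 CPM. Sparc was called higher (1.86, adjusted p = 0.038) and lost its call without replicates 1, 2, 5, 7 or 8 in turn. Clec4f, the Kupffer cell lectin, had a median of 0.329 CPM against 9361 CPM in Kupffer cells. Spic, a transcription factor of red pulp macrophages, was higher at 21.5 to 107.7 CPM (3.19 ± 0.54, edgeR adjusted p = 1.4e-05), below its Kupffer mean of 232 CPM, and lost its call without microglia (edgeR adjusted p = 0.084). Cdh5 had a median of 0.0696 CPM against a Kupffer mean of 177 CPM, and was called higher than the mean of the other 6 (2.51 ± 0.59, edgeR adjusted p = 0.0020), with a difference of -7.80 from Kupffer cells and a positive one from each of the other 5. That call was lost by voom, with the replicate block and without adipose replicate 4 or 8, and its mean log2 difference was below 0 in each of the 4 cohorts. Selp, a peritoneal marker, had a median of 0.0802 CPM against 1189 CPM in peritoneal macrophages. The monocyte list summed to 432 to 1290 CPM in adipose libraries, beside means of 7378 CPM in monocytes, 1725 CPM in Kupffer cells, 657 CPM in islet, 545 CPM in peritoneal and 538 CPM in colonic macrophages and 11.8 CPM in microglia, and its higher member was Ccr2. Summed over 10 genes, the microglial list held 429 to 1118 CPM in adipose libraries and 22751 to 33611 CPM in microglia.

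By the number of genes that differed by at least 1 on the log2 scale at an adjusted p below 0.05, adipose macrophages were nearest to Kupffer cells and farthest from microglia. The counts were 1431 genes against Kupffer cells (8.88%), 1573 against islet macrophages (9.76%), 1612 against colonic macrophages (10%), 2136 against peritoneal macrophages (13.3%), 2350 against monocytes (14.6%) and 3004 against microglia (18.6%). Groups of 6 libraries give less power than groups of 8, so the order of the first 3 was not tested. Against colonic macrophages only 407 genes were higher and 1205 lower in adipose. Colonic libraries carry RNA of pancreatic acinar cells (median 14620 CPM over 10 genes, against 15.96 CPM in adipose) and of plasma cells, whose part in that count was not tested.

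The same measures were made in the refed libraries, which the fasted values did not use. There 1631 of 15649 genes were higher than the mean of the other 6 (10.4%) and 623 lower (3.98%), 51 were higher than in each population (0.326%) and 41 lower (0.262%). Of the 35 genes higher than in each fasted population, 35 had the same sign in refed libraries, 34 were called against the mean and 22 were again higher than each, which is 62.9% of the fasted and 43.1% of the refed set. Of the 33 lower genes, 31 had the same sign, 19 were called and 8 were again lower than each (24.2% of the fasted and 19.5% of the refed set). Cbr2 in refed adipose libraries ran from 884 to 2270 CPM, Cd209f from 417 to 796 CPM and Folr2 from 94.7 to 248 CPM.

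Feeding changed few of these differences past the threshold. In a fit of all 110 libraries, 27 of 18640 genes (0.145%) had an adipose difference that changed between fasted and refed mice by edgeR's quasi-likelihood test, and 950 had an unadjusted p below 0.05. Among the 158 genes chosen for naming, Tlr12 passed, with a change of -4.25 ± 1.013 (edgeR adjusted p = 0.048), and refed adipose libraries held 0 to 8.13 CPM. Among the 33 lower genes, 2 passed, of which Scd2, a fatty acid desaturase named after its value was seen, held 0 to 0.139 CPM in fasted and 0 to 42.2 CPM in refed adipose libraries (-6.19 ± 1.44, edgeR adjusted p = 0.0398). Angptl4 ran from 0.0503 to 280 CPM in refed adipose libraries with a median of 49.8 CPM, and Pdk4 from 0 to 100 CPM with a median of 23.7 CPM, while the changes in their adipose differences did not pass (0.69 and 1.41, edgeR adjusted p = 1 for both). Both genes also had other populations in these contrasts, so those values do not compare fasted with refed adipose libraries alone.

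**Figure D5:**
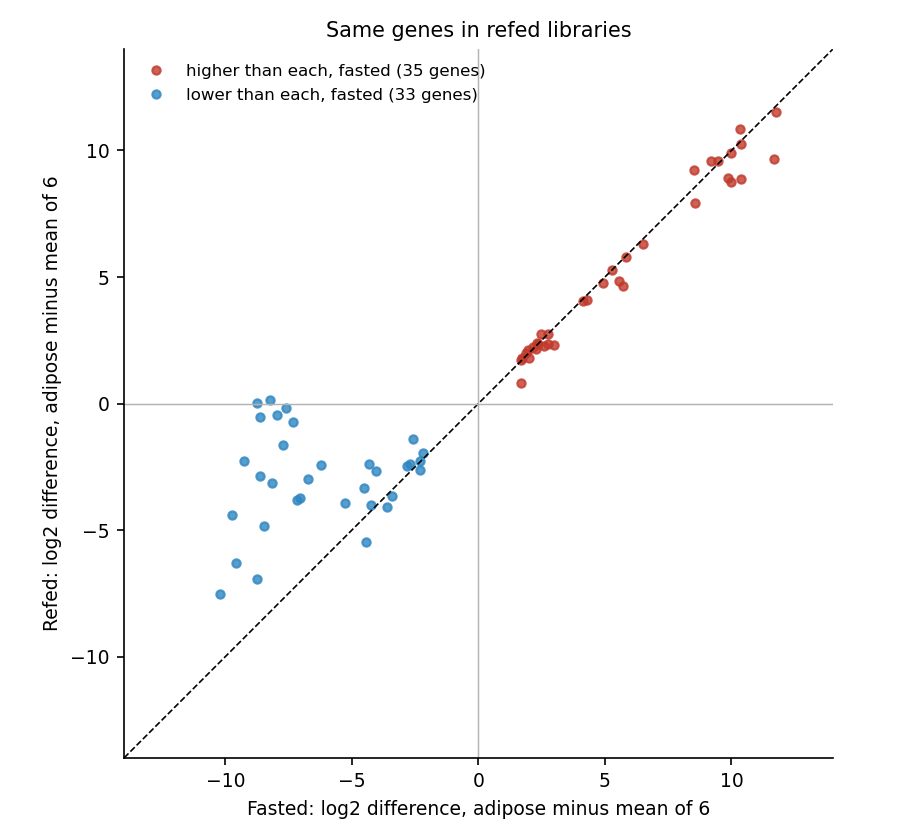
Log2 difference of adipose macrophages from the mean of the other 6 populations in fasted (x axis) and refed (y axis) libraries, for the 35 genes higher and 33 lower than in each fasted population. The dashed line marks equality. All 35 red points are above 0 in refed libraries, and 31 of 33 blue points are below 0.

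The cohorts divide the same libraries on which the genes were called, so their directions are a description. Of the named genes called higher, 99 were above the mean of the other populations in each of the 4 cohorts, and of those called lower, 40 were below it. The exceptions were Areg, Ccl11, Ccl17, Cd209e, Cdh5, Gm15621 and Serping1 among the higher and Clec4f and Spi1 among the lower. Cohort 3 holds no fasted Kupffer library, so its differences are from the mean of 5 other populations. Clec4f, the Kupffer cell lectin, was above 0 only in that cohort (0.09). For Cbr2 the difference of log2 levels was between 4.92, in cohort 3, and 6.76 in the 4 cohorts.

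Genes with the pattern most like each marker were found by Pearson's r of log2(CPM + 1) over the 7 population means, which share the same libraries. For Folr2 they were C1qtnf1 (0.98), Pld2 (0.98), Gm15621 (0.97), March3 (0.97) and Gabarapl1 (0.97). Pld2 and March3 did not pass the test against the mean of the other 6, and Gm15621 lost its call by DESeq2, by voom, without microglia or monocytes, and without replicate 1, 2 or 3. C1qtnf1, a secreted C1q-like protein, ran from 55.5 to 447 CPM with a median of 200 CPM, beside a Kupffer mean of 82.3 CPM. For Cd209f they were Gm13822 (0.98), Gm17024 (0.97), Tbc1d4 (0.97), Cd209g (0.96) and Sertad1 (0.96). Gm13822 lost its call by DESeq2, without monocytes and without replicate 7. For Cbr2 they included Zfp628 (0.97), Psmd14 (0.96), Ppig (0.96) and Mrpl23 (0.95), of which 0 passed the test against the mean of the other 6, so their likeness is one of order over 7 means.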

How the data were processed

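Gene expression was measured in sorted mouse macrophages by Smart-seq2 RNA-seq. The authors deposited a table of raw counts per gene. Reads were trimmed with Trimmomatic 0.36, aligned with STAR 2.5.1a to mm10 and counted with featureCounts, per the submitters' processing notes. No source used here gives the annotation release, strand setting or treatment of reads with several matches, so genes with near copies or overlapping exons are uncertain. Of 50686 identifiers, 50462 matched GENCODE M21 and took their symbols from it, and 0 columns lacked a sample.

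From the counts, CPM values were computed on TMM-scaled library sizes, and genes with low counts were left out by edgeR's filterByExpr on population. edgeR 4.0.16 (R 4.3.3) was fitted to the 52 fasted libraries with population and cohort as terms, by the robust quasi-likelihood F test with Benjamini-Hochberg adjustment. The adipose group was set against the mean of the other 6 population coefficients and against each alone. A second fit took the 58 refed libraries and another all 110, with the interaction. The fit of adipose against the mean of the other 6 was tested on simulated counts, in which the populations were otherwise alike. The pairwise rule, the refed fit and the interaction were not simulated. Alternatives were DESeq2 1.42.0, voom with quality weights (limma 3.58.1, span 0.1), RLE scaling, no filter, no cohort term, a replicate block (without the islet libraries with paired numbers), libraries weighted equally, and leaving out each adipose replicate, each other population or the islet libraries with paired numbers. Leaving out adipose replicates 2 and 5 was chosen after seeing the data. A population at 0 counts was given a floor of 3 counts over the group, and such floors cover counting error only. Depth was 9.90 to 23.7 M counts per fasted library, and 0 of 170 pairs of fasted libraries of a group were identical.

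Members and lists were chosen with earlier results of these data known. Named genes are the 3 markers, the 20 genes with the largest smallest difference among those higher than in each population (mean of at least 10 CPM in adipose), the 10 counterparts among the lower ones (at least 10 CPM in each other population), up to 4 called members per list and direction, the CD209 family, and the 5 genes most like each marker, 145 in all without a few genes that are not reported here. A further 13 genes, such as Timd4, Trem2, Lyve1, Mrc1, Maf and Ccl2, and the genes of other cells, were named after their values were seen. Of the 158, 37 have exons that overlap another gene. The labels describe 4 refed libraries (2 islet and 2 Kupffer) by the fast alone, while their titles place them in the refed groups. An alternative of the refed fit and of the interaction left them out.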

Additional observations from a re-analysis of the deposited data

Results flagged for a closer look

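In 19 of the 158 genes chosen for naming, 1 of the 8 adipose libraries stood far from the other 7 by Dixon's criterion. The criterion was applied to log2(CPM + 1), while the values printed below are CPM. Chance meets it in about 1 of 20 groups of normally distributed values. That rate need not hold for genes with most libraries at or near 0, such as Mmp27. Replicate 1 accounts for 5 of the 19, replicate 2 for 7, replicate 3 for 2, replicate 5 for 2 and replicate 8 for 3.

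Replicate 2 was low for C1qtnf1 (55.5 CPM), Cxcl12 (11.3 CPM), Fcrls (87.4 CPM), Gpr34 (163 CPM) and Slc7a13 (0 CPM), and high for Mmp19 (679 CPM) and Fpr1 (13.3 CPM). It also has the highest sum of the fibroblast list of the 8, mostly Gsn. The part of fibroblast RNA in these values was not tested. Replicate 1 was low for Ptgs1 (5.44 CPM), Scarb1 (0.697 CPM) and Slc9a4 (0.349 CPM), and high for Selp (1.67 CPM) and Mmp27 (0.0697 CPM, where the other 7 had 0 counts). Replicate 3 was low for Itgal (0.139 CPM) and Cidec (0 CPM). Replicate 5 was low for Cbr2 (685 CPM) and C1qc (792 CPM). Replicate 8 was low for Dusp1 (5117 CPM) and Tgfbr1 (19.3 CPM) and high for Mmp14 (22.6 CPM).

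The Tlr12 difference of adipose macrophages from the mean of the other 6 populations changed between fasted and refed libraries by -4.25 on the log2 scale in the test of that change (edgeR adjusted p = 0.048), with adipose means of 0.131 CPM fasted and 2.51 CPM refed.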

How the results depend on the processing

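Of 3625 values of named genes under 23 alternatives, 3462 kept direction and side of the threshold, 137 lost their call, 15 gained one and 11 turned sign. Without microglia the differences turned to -0.049 for Adgre1, -0.080 for Apoe, 0.044 for Csf1r, -0.053 for Lyz2, -0.89 for Timd4 and 0.28 for Trem2. Without monocytes they turned to -0.11 for Adgre1, -0.24 for C1qa, -0.070 for C1qb, -0.20 for C1qc and -0.73 for Timd4. Each of these leaves a contrast of 5 populations. Genes lower than the mean numbered 1261 by DESeq2 and 1307 by voom. Genes higher than each population numbered 93 by voom. Genes lower than each numbered 122 by DESeq2, 55 without the cohort term and 52 without islet libraries, and voom's 30 shared 16 with the 33. Changes with feeding numbered 44 by voom, and 26 without the 4 refed libraries described by the fast alone. The cause was not tested. Leaving out 1 adipose replicate at a time gave 1184 to 1266 genes higher, 449 to 516 lower, 30 to 36 higher than each and 25 to 31 lower than each. Same-numbered libraries of different populations did not deviate together (mean correlation 0.0011 over 134 pairs, 0 above 0.1). Libraries of the same cohort with other numbers were as flat (0.0032). Such correlations across tissues cannot tell whether equal numbers stand for the same mouse. With the replicate block, which also leaves out the islet libraries with paired numbers, 1233 genes were higher, 450 lower, 31 higher than each and 22 lower than each, beside 1499, 548, 33 and 29 without those libraries and with no block, and 7 named genes lost and 1 gained a call. Differences in genes near 0 counts are limited by depth and by the 400 cells per library.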
